A study of Homo sapiens with 12 samples.

Results

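The 4 untreated single-cell libraries of HCT116, a human colorectal carcinoma cell line, were compared with the 2 untreated mini-bulk libraries of the same line, which makes 6 of the 12 libraries in the series. The libraries were chosen by their labels alone. None of the 6 went through scDASH, the Cas9-based step that removes ribosomal RNA (rRNA) sequence from finished libraries and that the other 6 (called DASHed) received. Both inputs were taken through MATQ-seq, which primes along total RNA and then amplifies it, so that RNAs without a poly(A) tail are also read. A single-cell library holds the RNA of 1 cell isolated by FACS, whereas mini-bulk is a small pool. The number of cells in that pool is not given in the sources used here, and no culture is named for any library. The 4 cells therefore count as 1 sample: they are given one by one, without a test, and the mini-bulk spread between 2 libraries may be technical.

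As background, a pool averages over cells, while 1 cell shows only the RNAs it held when it was lysed. Many genes are transcribed in bursts, so a cell can hold many copies of an mRNA or none while the population mean is moderate. Some RNAs depend on the moment in the cell cycle, such as the histone mRNAs of S phase, and some on recent signals, such as immediate-early mRNAs. Copies of a scarce RNA can also be lost before they are amplified from 1 cell.

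Counts per library totalled 5545355 to 6008358 in the cells and 6026584 and 5803180 in the mini-bulk libraries. Before scaling, rRNA rows and 4 lincRNA rows that overlie 18S rRNA were left out, and 1077290, 1505387, 1268158 and 1231262 counts were left in cells 1 to 4 against 854974 and 1035731 in mini-bulk libraries 1 and 2. All levels below are counts scaled to a common total of these remaining counts, in the usual unit CPM. A count of 3, used as the floor for absence, is worth 1.99 to 3.51 CPM, and it covers counting error only. The rows left out had different make-up in the respective inputs. The 28S rRNA row took 26.9 to 31.7% of all counts in the cells and 15.2 and 12.7% in mini-bulk, the 18S rRNA row 13.5 to 15.6% against 23.4 and 21.5%, and the 4 lincRNA rows 21.1 to 29.2% against 37.3 and 36.9%. The ratio of 28S to 18S counts was 1.82 to 2.04 in the cells and 0.652 and 0.589 in mini-bulk, with no overlap. The 18S row alone may hold only part of the 18S reads. With the 4 lincRNA rows added to it, the ratio was 0.634, 0.778, 0.763 and 0.660 in cells 1 to 4. In mini-bulk it was then 0.251 and 0.217, again with no overlap. Whether this difference touches other genes was not tested.

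Epithelial genes were read in both inputs. EPCAM, an adhesion protein of epithelia, stood at 53.8, 15.1, 44.2 and 90.7 CPM in cells 1 to 4 and at 40.9 and 51.2 CPM in mini-bulk. The keratin gene KRT8 stood at 803, 603, 2236 and 445 CPM in the cells and at 547 and 529 CPM in mini-bulk, and CDX2, an intestinal transcription factor, at 6.50 to 44.9 CPM in the cells and 18.7 and 9.66 CPM in mini-bulk. Other intestinal markers were near the floor: VIL1 and CEACAM6 had no count in any cell and at most 1.17 CPM in mini-bulk. Of 10 fibroblast and stroma markers, 6 had any count, and together they took 0.000399 to 0.00444% of the counts in the cells and 0.00412 and 0.00421% in mini-bulk. Only COL1A1 reached the expression filter, at 18.8 CPM in cell 3, 0 in the other cells, and 19.9 and 19.3 CPM in mini-bulk. The 12 blood and 7 endothelial markers took at most 0.00147% each in any library. In bulk samples, fewer cells of a type and less RNA per cell cannot be told apart.

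Fewer genes were detected in single cells than in mini-bulk at the same depth, and loss of RNA before amplification cannot be told apart from absence in the cell. After each library was thinned at random to 854646 counts, cells 1 to 4 showed 14763, 12569, 15113 and 14990 genes with at least 1 count, and the mini-bulk libraries 21562 and 21093 (mean 21328 ± 332, SD, n = 2). Every cell lay below both mini-bulk libraries, and cell 2 lay lowest. The ratio of means was 0.673. With at least 10 counts asked of a gene, the cells showed 6403 to 7830 genes, the mini-bulk libraries 9805 and 9635, and the ratio was 0.763. The counts of the 4 cells, summed and thinned to the same depth, showed 18216 genes.

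Different genes were detected in the 4 cells. Together they showed 22692 genes at the thinned depth, but only 7376 were seen in every cell. The mini-bulk libraries showed 25131 genes together and 17524 in both. Of the latter, 1674 were seen in no cell. Detection followed the level in the pool. Among the 4224 genes at 10 to 30 CPM in mini-bulk library 1, 98.6% were seen in mini-bulk library 2 and 61.0 to 78.9% in a cell, 38.3% in all 4 cells and 96.1% in at least 1 cell. Among the 3963 genes at 30 to 100 CPM, 99.9% were seen in mini-bulk library 2 and 83.5 to 95.7% in a cell. From 100 to 300 CPM a cell showed 97.1 to 99.8% of the genes, so absence from a cell was mostly a matter of genes below 100 CPM in the pool.

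**Figure D1:**
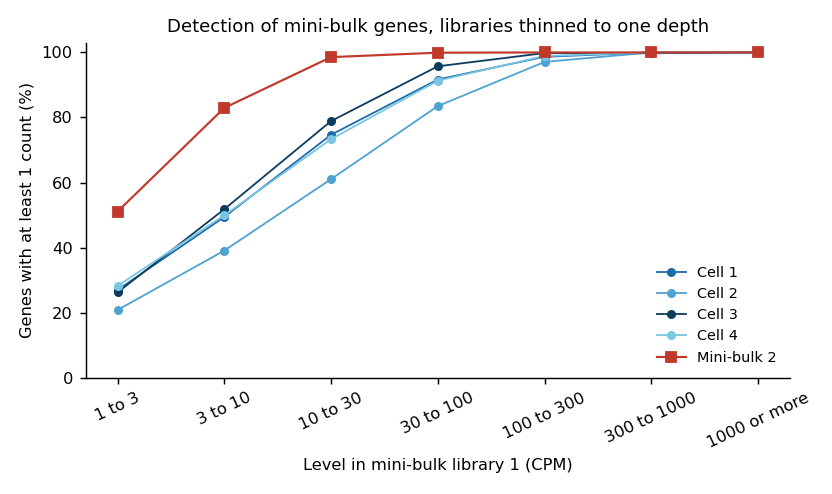
Share of genes with at least 1 count (%) in each single cell (circles) and in mini-bulk library 2 (squares), by the gene's level in mini-bulk library 1 (CPM), all libraries thinned to 854646 counts. At 10 to 30 CPM mini-bulk library 2 shows 98.6% of the genes and the cells 61.0 to 78.9%, with cell 2 lowest, and the lines meet at 300 CPM and above.

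Levels were also less alike between cells than between the pools. Genes without a count in a cell were kept, so the values below include the differences in detection. Over the 10039 genes with a mean of the group means of at least 10 CPM, log2(CPM + 1) of the mini-bulk libraries correlated at r = 0.905. Pairs of cells correlated at 0.397 to 0.459, a cell and the mini-bulk mean at 0.563 to 0.673, and the mean of the 4 cells and the mini-bulk mean at 0.746. These are descriptions across genes, which are not independent, and they share depth and library. Among genes at 10 CPM or more in mini-bulk, the median absolute log2 difference was 0.36 between the mini-bulk libraries and 1.35 to 1.63 between pairs of cells. Among the 2038 genes at 100 CPM or more it was 0.20 and 0.84 to 1.04. Of these higher genes, 58.8 to 69.1% in a single cell, but 87.2% in the mean of the 4 cells, lay within 2-fold of the pool.

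Genes were then compared as the ratio of the mean of the 4 cells to the mini-bulk mean, with 1 CPM added to each. A gene was called where the ratio was at least 2-fold and all 4 cells lay on the same side of both mini-bulk libraries. Of 10039 genes, 260 (2.59%) were called higher in the cells and 992 (9.88%) lower. By the 2-fold criterion alone the numbers were 1605 (16%) and 1584 (15.8%), and the median log2 ratio was 0.02, so the excess of lower calls arose where all 4 cells had to lie on one side. The split also moved with the scaling: 381 higher and 663 lower with TMM factors, 472 and 538 with DESeq2 size factors, which moved the median log2 ratio of all genes to 0.26 and 0.38, and 650 and 89 where the 4 lincRNA rows were kept. The genes called lower had a median level of 35.4 CPM in mini-bulk and 8.33 CPM in the cells, the genes called higher 41.9 and 120 CPM, and all tested genes 38.2 and 40.2 CPM. Of the genes called lower, 23 had no count in any cell. Among the genes named here, values are uncertain, beside those said to be so where they are described, for MRPS12, MZT2B, LAMTOR4, RPS15, RPL19, ATP5F1E, TPI1, HSPB1, SF3A2, SLC7A11, OCLN, TPT1, SNHG8, SNHG12, NUP88, ACTG1, B4GALNT1, JUNB, KRT8, KRT18, VIL1, CEACAM6, ELF3, GBAP1, MT-ATP6, MT-ATP8, MT-CO3, MT-ND6 and the histone genes other than HIST1H1E, which share at least 10% of their 31-base words with other transcripts.

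**Figure D2:**
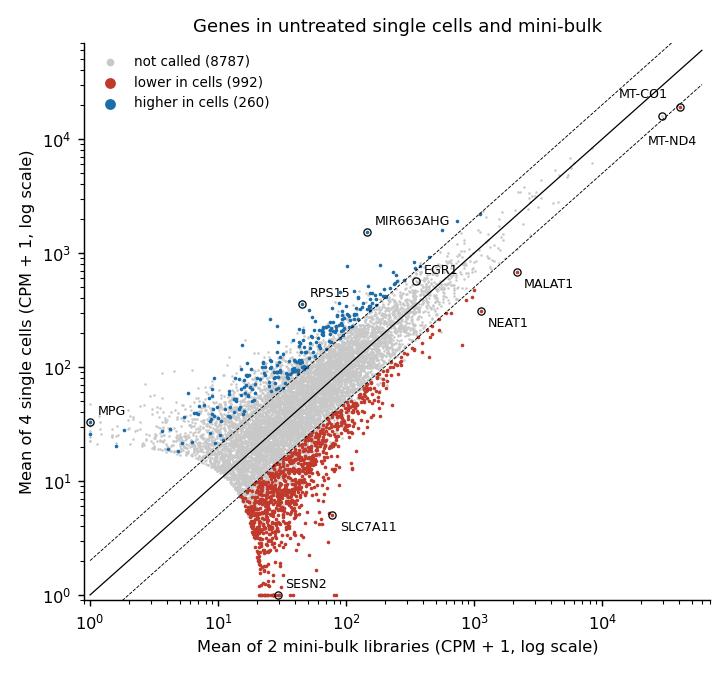
Mean level of each of 10039 genes in the 4 single cells against the mean of the 2 mini-bulk libraries (CPM + 1, both axes log), with the line of equality and dashed lines at 2-fold. The 260 genes called higher (blue) lie above the upper dashed line and the 992 called lower (red) below the lower one, while most mitochondrial and cytoskeletal mRNAs at the top right lie near equality, except MT-CO1 and MT-ND4.

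The 5 non-coding or pseudogene RNAs called higher with the highest ratios, of those at 30 CPM or more in the cells, included 3 from a pair of loci named for the microRNA miR-663. MIR663AHG, the non-coding host gene of MIR663A (chromosome 20, 26186920 to 26251526, minus strand, GRCh38), stood at 1662, 1051, 1800 and 1586 CPM in cells 1 to 4 and at 142 and 147 CPM in mini-bulk, 10.5-fold higher. MIR663A, which lies within it, stood at 344, 280, 188 and 241 CPM in the cells and at 16.4 and 32.8 CPM in mini-bulk. The paralogous locus showed the same direction. MIR663B (chromosome 2, 132256966 to 132257080, minus strand) stood at 50.1, 59.8, 26.02 and 47.1 CPM against 5.85 and 7.72 CPM, and ANKRD30BL, within whose limits it lies (132147591 to 132257969, minus strand), at 782, 626, 971 and 703 CPM against 114 and 86.9 CPM. Cells and pools did not overlap for any of the 4 genes, which the call requires. The mature microRNAs, from RefSeq (GRCh38.p14), are printed with the seed, bases 2 to 8, in capitals, to show that both are rich in G and C (90.9 and 81.8%) and have different seeds.
hsa-miR-663a: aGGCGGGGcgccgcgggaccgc
hsa-miR-663b: gGUGGCCCggccgugccugagg

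The counts stand for whole gene rows and not for mature microRNAs. MIR663A shares 74.6% of its 31-base words with other transcripts, all of them in MIR663AHG. ANKRD30BL shares 48.9% with other genes and MIR663B 18.8%. MIR663A, ANKRD30BL and MIR663B share no such word with each other. Reads could be split between each of them and the other genes, so these 3 values are uncertain. MIR663AHG itself shares 8.96%, and only 0.315% of its words lie in ANKRD30BL. LINC00273 (chromosome 16, 34158585 to 34160036, minus strand), a non-coding RNA that holds the shared words of MIR663B, stood at 287, 221, 187 and 211 CPM in the cells and 21.1 and 34.8 CPM in mini-bulk, 7.87-fold higher. In the DASHed libraries the log2 ratio was 2.76 for MIR663AHG, 2.45 for ANKRD30BL and 2.43 for LINC00273, and each was called higher there too. The 28S rRNA share, given above, also was higher in the cells, and its part in these values was not tested. PKD1P5, a pseudogene of PKD1 with near-identical copies and so uncertain, was 10.3-fold higher.

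Cytosolic ribosomal protein genes, which encode the protein parts of the ribosome, were the largest group of higher genes. Of 82 tested, 34 were called higher and none lower, against 2.59% and 9.88% of all genes, and the median log2 ratio was 0.998 against 0.02. A median above 0 held in every alternative, at 0.80 to 1.62. Their share of counts was 2.45, 2.10, 2.14 and 3.37% in cells 1 to 4 and 1.45 and 1.19% in mini-bulk (mean 1.32% ± 0.18, SD, n = 2). All 4 cells lay above both pools, cell 4 farthest. By subunit, 17 of 32 small-subunit and 16 of 48 large-subunit genes were called higher.

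RPS15, a small-subunit protein gene (chromosome 19, 1438358 to 1440494), stood at 195, 558, 248 and 410 CPM in the cells and at 59.2 and 29.9 CPM in mini-bulk, 7.76-fold higher. RPS21 stood at 113, 93.0, 86.0 and 372 CPM against 35.1 and 21.2 CPM. RPL19, of the large subunit, stood at 420, 483, 350 and 552 CPM against 109 and 68.6 CPM. In each case the lowest cell lay above the higher mini-bulk library, which the call requires. Ribosomal protein genes have many processed pseudogenes, and 64 of the 82 share at least 10% of their words with other transcripts, which makes their values uncertain. Among the other 18 genes, a subset taken after the values were seen, 9 were called higher, with a median of 1.22. The 1060 ribosomal protein pseudogenes took 0.0443 to 0.0945% of the counts in the cells and 0.0582 and 0.0507% in mini-bulk, ranges that overlap. By GC content, the median log2 ratio was 0.81 for 16 ribosomal protein genes and −0.26 for the other genes at 40 to 45%, 0.73 for 24 and −0.15 at 45 to 50%, 0.98 for 23 and 0.05 at 50 to 55%, 1.26 for 15 and 0.28 at 55 to 60%, and 1.97 for 4 and 0.53 at 60% or more.

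The protein machinery of mitochondria that is encoded in the nucleus showed smaller differences. Of 73 tested subunits of the respiratory chain, 9 (12.3%, against 2.59% of all genes) were called higher and 6 (8.22%, against 9.88%) lower. The median log2 ratio of the mean of the cells was 0.77, and it was above 0 in every alternative. Cell by cell the median was 0.747, −0.228, −0.148 and 1.13 in cells 1 to 4. That of all genes was −0.364, −0.908, −0.385 and −0.358. The share of these subunits was 0.595, 0.437, 0.401 and 0.671% in the cells and 0.374 and 0.35% in mini-bulk. UQCR10, a small subunit of complex III, stood at 135, 24.3, 33.9 and 114 CPM in the cells and at 16.1 and 10.7 CPM in mini-bulk. NDUFB10, of complex I, stood at 69.6, 154, 84.4 and 231 CPM against 29.2 and 26.1 CPM, and ATP5F1E, of ATP synthase, at 71.5, 77.1, 21.3 and 134 CPM against 9.36 and 20.3 CPM. Only for ATP5F1E did a cell come close to a mini-bulk value. Of 64 mitochondrial ribosomal protein genes, 5 (7.81%) were called higher and 4 (6.25%) lower, with a median of 0.58. MRPS12 stood at 82.6, 45.8, 9.46 and 93.4 CPM against 5.85 and 3.86 CPM, whereas MRPL13 stood at 3.71, 0.664, 7.10 and 0 CPM against 29.2 and 15.4 CPM.

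Glycolytic genes had 3 of 18 (16.7%) called higher and none lower, with a median of 0.35. ENO1, enolase, stood at 1444, 2715, 1859 and 1619 CPM in the cells and at 763 and 711 CPM in mini-bulk, 2.59-fold higher. PFKP, the platelet form of phosphofructokinase, stood at 214, 517, 279 and 433 CPM against 134 and 135 CPM. TPI1 was 2.03-fold higher and lost the call without cell 2, without cell 4, without mini-bulk library 2, or with the GC trend taken out (log2 ratios 0.83, 0.99, 0.90 and 0.84). Of 23 chaperone genes 2 (8.70%) were called higher: the small heat shock gene HSPB1, at 253, 356, 180 and 108 CPM against 65.3 and 71.4 CPM, and the chaperonin subunit CCT3, at 401, 377, 440 and 531 CPM against 208 and 155 CPM. The median of the list was −0.19 and changed sign in 9 alternatives. Of 41 proteasome subunits, 5 (12.2%) were called higher and 4 (9.76%) lower, the latter share being that of all genes. PSMD8 was 4.15-fold higher. PSMA1 stood at 1.86, 1.33, 37.1 and 23.6 CPM in the cells against 60.9 and 46.3 CPM, with reads that may be split with other transcripts, and lost the call with DESeq2 size factors (−1.37).

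Of the other protein-coding genes with the highest ratios, ID1, an inhibitor of basic helix-loop-helix factors (chromosome 20, 31605283 to 31606515), stood at 85.4, 73.7, 92.3 and 181 CPM in the cells and at 22.2 and 9.66 CPM in mini-bulk. XPA, a nucleotide excision repair gene, stood at 13.0, 71.7, 33.1 and 22.7 CPM against 5.85 and 2.90 CPM. MPG, a DNA glycosylase gene, stood at 33.4, 56.5, 33.1 and 4.87 CPM and had no count in either mini-bulk library, at least 20.1-fold higher against a floor of 3 counts over both. It shares 25.7% of its words with other transcripts. The splicing factor gene SF3A2 stood at 288, 282, 307 and 211 CPM against 50.3 and 56.0 CPM. RPPH1, the RNA of ribonuclease P, stood at 310, 502, 390 and 562 CPM against 188 and 127 CPM, was under 2-fold (0.86) with the GC trend taken out, and is uncertain because all its words lie in other transcripts as well. LAMTOR4 was 6.47-fold, MZT2B 8.55-fold, CARMIL2 6.34-fold and U2AF1L5 7.07-fold higher, and U2AF1L5 is a near-identical copy of another gene.

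The mitochondrial genome encodes subunits of the respiratory chain, rRNAs and tRNAs, and both of its strands are transcribed as long precursors in which tRNAs punctuate the other genes. Its mRNAs took 6.975, 8.37, 6.64 and 6.97% of the counts in cells 1 to 4 and 10.7 and 10.8% in mini-bulk (ratio 0.675), and all cells lay below both pools. The difference was not spread over the 13 genes. MT-CO1, a cytochrome oxidase subunit (mitochondrial position 5904 to 7445), stood at 18388, 20775, 16924 and 19596 CPM in the cells and at 40214 and 40841 CPM in mini-bulk, 2.14-fold lower. MT-ND4, of complex I (10760 to 12137), stood at 16551, 21991, 13574 and 11715 CPM against 27911 and 30503 CPM, 1.83-fold lower and so not called. Together these 2 genes, grouped after their values were seen, took 3.05 to 4.28% in the cells and 6.81 and 7.13% in mini-bulk, a ratio of 0.5. The other 11 mRNAs took 3.48 to 4.10% against 3.84 and 3.67%, a ratio of 0.999. MT-CO3, for example, stood at 6480, 7465, 5833 and 5022 CPM against 5935 and 6041 CPM. The near-equal sum of the 11 holds differences both ways. Of the 12 plus-strand mRNAs, 3 had all cells below both pools, MT-CO1 and MT-ND4 among them, and 2 had all cells above both. In the DASHed libraries the ratio was 0.619 for MT-CO1 and MT-ND4 together and 1.26 for the other 11.

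The size of the MT-CO1 difference depends on the scaling: its log2 ratio was −1.10 here, −0.86 with TMM factors and −0.74 with DESeq2 size factors, and −0.48 with the 4 lincRNA rows kept, so the call was lost while the direction stayed. In the DASHed libraries its log2 ratio was −0.69, and it was not called. Of the transcript words of MT-CO1, 66.7% lie in other transcripts too, and of MT-ND4 21.2%. The 45 nuclear copies named MTCO1P summed to 30.1 to 85.6 CPM in the cells and to 89.7 and 97.6 CPM in mini-bulk. How reads were divided between MT-CO1 and its copies was not tested. MT-ATP8, of ATP synthase, was the 1 mRNA called higher, at 446, 628, 468 and 445 CPM against 240 and 196 CPM, and it overlaps MT-ATP6.

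Of 10 mitochondrial tRNA genes tested, 3 (30%) were called higher, against 2.59% of all genes. Of 6 tested on the minus strand, 4 had all cells above both pools, and of 4 on the plus strand none had. That criterion has no fold limit, and the share of all genes that meet it is not given here. The median log2 ratios were 1.01 on the minus and 0.33 on the plus strand, and the difference between the strands was not tested. The 4 minus-strand genes with all cells above both pools are neighbours. MT-TA (alanine) stood at 85.4, 65.1, 58.4 and 145 CPM in the cells and at 36.3 and 18.3 CPM in mini-bulk. MT-TN (asparagine) stood at 91.9, 45.8, 67.0 and 155 CPM against 28.1 and 24.1 CPM, and MT-TC (cysteine) at 97.5, 69.7, 83.6 and 141 CPM against 40.9 and 34.8 CPM. These 3 were called higher, but not by edgeR with the DASHed groups in the fit. MT-TY (tyrosine), under the 2-fold limit, stood at 94.7, 73.1, 97.8 and 148 CPM against 62.0 and 67.6 CPM. The 1 mRNA of the minus strand, MT-ND6, of complex I, likewise had all cells above both pools, at 658, 620, 810 and 823 CPM against 455 and 474 CPM. Minus-strand tRNA genes together took 0.0284 to 0.0665% of the counts in the cells and 0.0205 and 0.018% in mini-bulk, and plus-strand ones 0.0112 to 0.0405% against 0.0257 and 0.0229%. The strands were compared after these values were seen. The 4 neighbours are printed from GENCODE v29 (GRCh38), 5′ to 3′ on the minus strand and in genome order, at 5587 to 5655, 5657 to 5729, 5761 to 5826 and 5826 to 5891 of the mitochondrial chromosome, with the anticodon in capitals. MT-TC and MT-TY share 1 position of the genome.
MT-TA: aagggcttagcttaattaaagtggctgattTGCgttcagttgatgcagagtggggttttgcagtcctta
MT-TN: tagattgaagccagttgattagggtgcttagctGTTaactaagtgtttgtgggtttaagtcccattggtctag
MT-TC: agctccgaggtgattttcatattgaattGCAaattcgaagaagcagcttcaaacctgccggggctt
MT-TY: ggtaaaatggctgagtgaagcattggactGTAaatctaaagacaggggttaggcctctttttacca

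Whether reads of these tRNA genes come from tRNAs, from precursors or from the opposite strand cannot be told, because the handling of strand in the counts is not given in the sources used here. Their GC content, 41.1 to 45.5%, lies below the median of the tested genes (50%), while the median GC of the genes called higher was 57.4%.

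**Figure D3:**
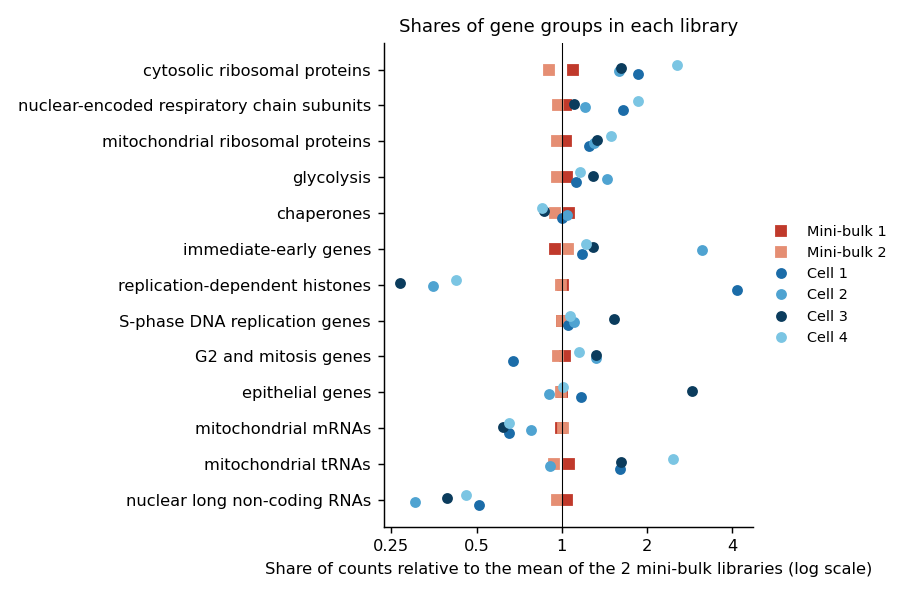
Share of counts of each gene group in each library, divided by the mean of the 2 mini-bulk libraries (log axis). Circles are single cells and squares mini-bulk libraries. All 4 cells lie to the right of both squares for cytosolic ribosomal proteins (2.10 to 3.37% against 1.45 and 1.19%) and to the left for mitochondrial mRNAs and nuclear long non-coding RNAs, while cell 1 alone lies far right for histones.

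Nuclear long non-coding RNAs together took a smaller share of the counts in the cells. Of 8 tested, 3 (37.5%, against 9.88% of all genes) were called lower and none higher. The median log2 ratio was −0.57, and it was above 0 (0.04) only where the 4 lincRNA rows were kept. Their share was 0.224, 0.134, 0.173 and 0.202% in the cells and 0.458 and 0.422% in mini-bulk (mean 0.44% ± 0.025, SD, n = 2). MALAT1, an RNA of nuclear speckles (chromosome 11, 65497688 to 65506516), stood at 957, 376, 801 and 612 CPM in the cells and at 2319 and 1971 CPM in mini-bulk, 3.12-fold lower. NEAT1, the scaffold of paraspeckles (chromosome 11, 65422774 to 65445540), stood at 675, 111, 345 and 101 CPM against 1186 and 1053 CPM, 3.63-fold lower. No cell reached either pool for these 2 RNAs, which the call requires, and NEAT1 also differed widely between cells. FTX, a non-coding RNA of the X-inactivation centre, stood at 73.4, 37.6, 67.1 and 65.7 CPM against 132 and 152 CPM, and was under 2-fold with TMM (−0.99) and DESeq2 (−0.88) scaling. It overlaps JPX and is uncertain. In the DASHed libraries the log2 ratios were −1.75 for MALAT1 and −2.65 for NEAT1, both called lower, but −0.05 for FTX. The median of the whole list was −0.004 there.

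The largest ratios toward the pool belonged to genes that were near the floor in every cell. SESN2, a stress-induced sestrin (chromosome 1, 28259527 to 28282491), had no count in any cell and 19.9 and 36.7 CPM in mini-bulk, at least 47.9-fold lower against a floor of 3 counts over the 4 cells. SUSD2, a membrane protein gene (chromosome 22, 24181259 to 24189110), had no count in any cell and 35.1 and 35.7 CPM in mini-bulk. IPO13, an importin gene, stood at 3.71, 0, 3.94 and 0 CPM against 70.2 and 72.4 CPM. The 2 pools were close to each other for the last 2 genes, while all 4 cells were at or near 0. PPTC7, a mitochondrial phosphatase gene, stood at 0 to 3.15 CPM against 54.97 and 46.3 CPM, and CDC45, a part of the replicative helicase (chromosome 22, 19479459 to 19520612), at 1.86, 0, 3.15 and 0.812 CPM against 40.9 and 37.7 CPM.

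SLC7A11, the cystine transporter gene (chromosome 4, 138164097 to 138242349), stood at 1.002, 0, 9.31 and 5.72 CPM in the cells and at 83.3 and 70.9 CPM in mini-bulk, 15.6-fold lower. RNF43, a negative regulator of Wnt receptors, stood at 0, 0, 0 and 2.57 CPM against 44.995 and 68.6 CPM, and shares 73.4% of its words with other transcripts. IKZF5 stood at 0 to 7.97 CPM against 46.8 and 73.4 CPM. Several others of the largest ratios, AC007192.1, BLOC1S5-TXNDC5, Z83844.3, AC106886.4 and STAG3L5P-PVRIG2P-PILRB, are readthrough or overlapping genes that share 88.6 to 99.1% of their words with other genes, so that their values depend on how reads were split. The pools themselves differed for BLOC1S5-TXNDC5, at 132 and 27.2 CPM.

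Of 12 epithelial genes tested, 3 (25%, against 9.88% of all genes) were called lower and none higher. CDH1, E-cadherin (chromosome 16, 68737225 to 68835548), stood at 0.928, 1.33, 3.15 and 17.1 CPM in the cells and at 52.2 and 77.5 CPM in mini-bulk, 9.92-fold lower. OCLN, occludin, stood at 0, 0, 7.36 and 17.1 CPM against 26.3 and 34.3 CPM. ESRP1, an epithelial splicing regulator, stood at 114, 33.9, 1.58 and 3.25 CPM against 128 and 119 CPM, so cell 1 was near the pools and cells 3 and 4 near the floor. It lost the call with TMM factors (−1.47), DESeq2 size factors (−1.35), the 4 lincRNA rows kept (−1.12) or no row left out (−1.21). The median of the epithelial list was 0.31 and changed sign in 3 alternatives.

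For most other groups the share of members called lower was near or under the 9.88% of all genes. Of 32 G2 and mitosis genes, 3 (9.38%) were called lower (DLGAP5, TTK and KIF23) and none higher, with a median of 0.00, and of 29 S-phase genes 2 (6.90%) were called lower (CDC45 and CCNE1), with a median of 0.13. With DESeq2 size factors DLGAP5, TTK, KIF23 and CCNE1 lost the call, at log2 ratios of −2.08, −1.54, −1.23 and −1.32, and TTK and CCNE1 were not called by edgeR either. KIF23, a motor of cytokinesis, stood at 0.928, 1.33, 29.96 and 25.2 CPM in the cells and at 49.1 and 37.7 CPM in mini-bulk, which sets cells 1 and 2 apart from cells 3 and 4. Of 28 nuclear pore genes 2 were called lower, NUP107 and NUP88, and of 28 very large structural and motor protein genes also 2, VPS13C and DNAH14, where NUP88 (−0.82) and VPS13C (−1.11) lost the call with the 4 lincRNA rows kept. Of 18 stress response genes 3 were called lower (SLC7A11, SESN2 and SEL1L, the last of which lost the call with TMM factors, at −1.56, and DESeq2 size factors, at −1.44) and 1 higher (SDF2L1, an endoplasmic reticulum protein gene named after its values were seen), with a median of 0.01. Of 17 cholesterol synthesis genes 1 was lower: FDFT1, squalene synthase, at 69.6, 286, 155 and 25.2 CPM against 437 and 346 CPM, a call lost with TMM (−1.21) and DESeq2 (−1.09) scaling. Of 46 splicing factor genes 3 were called higher and 2 lower, SRSF5 among the latter, at 0.9751, 0, 44.2 and 1.62 CPM against 44.5 and 57.0 CPM, a call lost with TMM (−1.74) and DESeq2 (−1.67) scaling. Of 17 snoRNA host genes SNHG8 was called higher and SNHG19 and SNHG12 lower, and both lower calls were lost with TMM factors (−1.45 and −1.56) and in the edgeR fit. Of 35 translation factor genes only TPT1 was called, 2.03-fold lower, and it was under 2-fold with TMM factors (−0.80). SESN2 was the 1 called gene of 18 p53 targets. No cytoskeletal gene of 21 was called, but the median of that list was 0.58. It stayed above 0 in every alternative, at 0.11 to 0.98. ACTG1, cytoplasmic actin, stood at 4775, 5073, 6572 and 6033 CPM in the cells and at 5557 and 5814 CPM in mini-bulk, a range that encloses the pools.

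The replication-dependent histones, which are made in S phase and whose mRNAs lack a poly(A) tail, set cell 1 apart from the other cells. They took 1.19% of the counts in cell 1, 0.101, 0.077 and 0.121% in cells 2 to 4, and 0.289 and 0.284% in mini-bulk (mean 0.286% ± 0.0034, SD, n = 2). Cell 1 thus lay above both pools, the other 3 below both. HIST1H3J stood at 1699, 0, 0 and 25.4 CPM in cells 1 to 4 and at 175 and 121 CPM in mini-bulk. HIST1H2BM stood at 569 CPM in cell 1, at 0 in the other cells, and at 87.0 and 89.1 CPM in mini-bulk, and HIST1H2AJ at 633, 0, 4.73 and 15.4 CPM against 84.2 and 71.6 CPM. In cell 1, 40 of the 83 histone genes lay above both pools, and in cells 2 to 4, 6, 2 and 10. Of the 83 genes, 56 had a count in these libraries and 36 reached the expression filter. No fold limit was asked here, and no share of all genes was set beside these counts.

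The comparison of means therefore depends on cell 1. The ratio of the histone share was 1.30 with all cells and 0.348 without cell 1, and the median log2 ratio of the 36 tested genes was 0.50 with it and −1.81 without it. HIST1H1E, a linker histone gene (chromosome 6, 26156354 to 26157107), was called higher, at 913, 136, 136 and 191 CPM against 73.7 and 123 CPM, and was under 2-fold (0.64) without cell 1. HIST2H4B, a near-identical copy and so uncertain, was also called higher, but not by edgeR, and HIST1H2BD lower, at 12.3, 0, 0 and 0 CPM against 24.7 and 18.2 CPM. Cell 1 was also the lowest cell for G2 and mitosis genes, at 0.411% of counts against 0.705 to 0.811% in the other cells and 0.632 and 0.596% in mini-bulk.

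Some immediate-early genes, which are switched on within minutes of a growth signal, were far higher in cell 2 than in the other cells. EGR1, a zinc finger factor (chromosome 5, 138465490 to 138469315), stood at 221, 2009, 0 and 21.1 CPM in cells 1 to 4 and at 311 and 390 CPM in mini-bulk. NAB2, a partner that represses EGR1, stood at 122, 667, 0.789 and 0 CPM against 63.2 and 17.4 CPM, and ID2 at 13.9, 670, 0 and 7.31 CPM against 21.1 and 9.66 CPM. JUNB, chosen after its values were seen, stood at 124, 1499, 57.6 and 157 CPM against 99.4 and 149 CPM. Not all such genes followed: FOS stood at 136, 13.3, 154 and 0 CPM against 52.6 and 76.3 CPM, and JUN at 39.9, 0, 308 and 0 CPM against 30.4 and 13.5 CPM. Of 32 immediate-early genes, 8 were higher in cell 2 than in every other cell and both pools. No share of all genes was set beside this count. The median log2 ratio of the 25 tested genes was lowest in cell 2, at 0.05 against 0.31, 0.62 and 0.34 in cells 1, 3 and 4, while that of all genes was −0.91 in cell 2 and −0.36 to −0.39 in the others. Their joint share was 0.704% in cell 2, 0.266 to 0.290% in the other cells, and 0.213 and 0.238% in mini-bulk, so every cell lay above both pools. Only FOSL1 was called, at 182, 573, 672 and 617 CPM against 134 and 159 CPM. The list's median was 0.84.

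Other genes marked single cells without a list. VCAN, a matrix proteoglycan gene, stood at 643 CPM in cell 2, 0 to 29.2 CPM in the other cells, and 116 and 127 CPM in mini-bulk. SPARC, a matrix protein gene, stood at 0, 399, 1057 and 17.9 CPM in cells 1 to 4 against 106 and 54.1 CPM. ANO1, a chloride channel gene, stood at 0, 0, 642 and 136 CPM against 150 and 162 CPM, and B4GALNT1, a ganglioside synthase gene, at 0, 55.8, 277 and 550 CPM against 123 and 132 CPM. For VCAN, ANO1 and B4GALNT1 the pools lay between the lowest and the highest cell and close to each other. Cell 3 held most keratin mRNA: KRT18 stood at 294, 163, 1321 and 554 CPM against 248 and 261 CPM, and with the KRT8 values above the epithelial share was 0.422% in cell 3 against 0.132 to 0.171% in the other cells and 0.147 and 0.146% in mini-bulk.

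**Figure D4:**
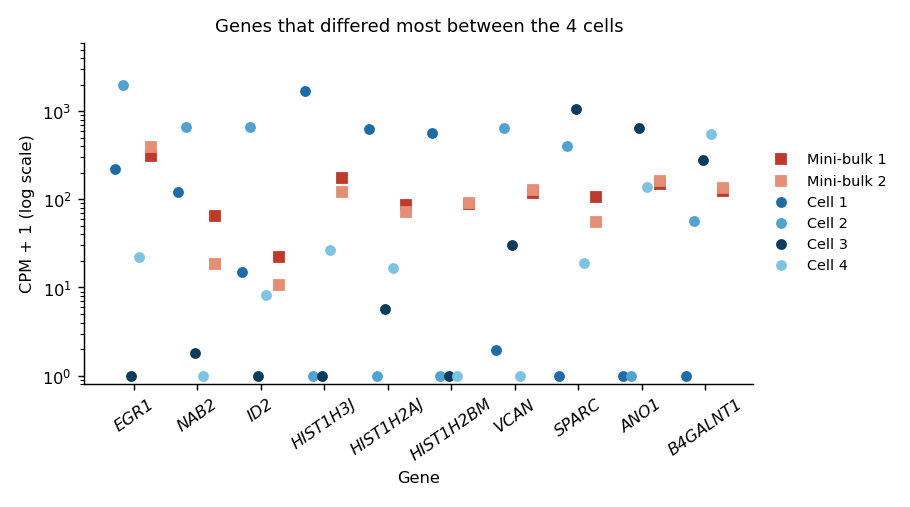
Levels (CPM + 1, log axis) of the 10 genes that differed most between the 4 single cells (circles) among genes at 100 CPM or more in their mean, beside the 2 mini-bulk libraries (squares). EGR1 is at 2009 CPM in cell 2 and 0 in cell 3, the 3 histone genes are high only in cell 1, and the mini-bulk values of most genes lie between the extremes of the cells.

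The ratio of cells to mini-bulk was related to GC content. The median log2 ratio was −0.30 for 879 genes under 40% GC, −0.25 at 40 to 45%, −0.13 at 45 to 50%, 0.07 at 50 to 55%, 0.29 at 55 to 60% and 0.53 for 1584 genes at 60% or more, and Spearman's rho across genes was 0.272. It was −0.03 for transcript length. The trend was present within each cell. In cell 2 the medians went from −1.38 to −0.26 over these bins, in cell 3 from −0.86 to 0.28, and in cell 4 only from −0.47 to −0.19. Genes called higher had a median GC content of 57.4% and those called lower one of 46.7%. With the GC trend taken out, 236 genes were called higher and 891 lower.

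The DASHed libraries of the same inputs share no library with these 6, and their values are set beside them. Same-numbered DASHed and untreated cells moved together around their group means (correlation 0.923 to 0.93 over 8131 genes) and may be the same cells, so agreement between the comparisons is not a replication in other cells. Of 8730 genes tested there, 186 (2.13%) were called higher and 882 (10.1%) lower. Of the 251 genes called higher in the untreated cells and tested in both, 250 had a ratio above 1 in the DASHed libraries, 186 were at least 2-fold higher and 119 were called. Of the 607 called lower and tested in both, 592 had a ratio below 1, 519 were at least 2-fold lower and 421 were called. Over all 8131 genes tested in both, 17.6% were at least 2-fold higher and 15.7% at least 2-fold lower in the DASHed libraries. No gene was called in opposite directions. The ribosomal proteins had 27 of 80 called higher with a median of 0.98, against 34 of 82 and 0.998.

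Some features of the untreated comparison were different in the DASHed one. The relation to GC content was nearly absent, with a Spearman's rho of 0.011 and medians of 0.29 under 40% GC, −0.07 at 50 to 55% and 0.17 at 60% or more. The histone shares of the DASHed cells and pools had nearly equal means (ratio 0.9998) where the untreated ratio was 1.30. Both ratios average over unlike cells, so they do not show that the histone pattern of cell 1 was lost. The highest DASHed cell had a histone share of 2.28%, against a mean of 0.705% in DASHed mini-bulk. HIST1H3J, HIST1H2AJ and HIST1H2BM were highest in cell 1 in the DASHed libraries too. XPA had a log2 ratio of 2.75 in the untreated and 0.26 in the DASHed libraries, and U2AF1L5 2.82 and 0.92. For XPA the DASHed means were 7.89 CPM in the cells and 6.42 CPM in mini-bulk. These lie under the expression filter, so its DASHed ratio is uncertain. The ratio of the summed minus-strand mitochondrial tRNA shares was 2.23 untreated and 4.76 DASHed. The DASHed ratio rests on few counts and is uncertain. Only 2 of the 22 mitochondrial tRNA genes reached the expression filter in the DASHed libraries. All 22 together took a mean of 0.00271% of the counts in DASHed mini-bulk. None of these differences between the comparisons was tested.

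**Figure D5:**
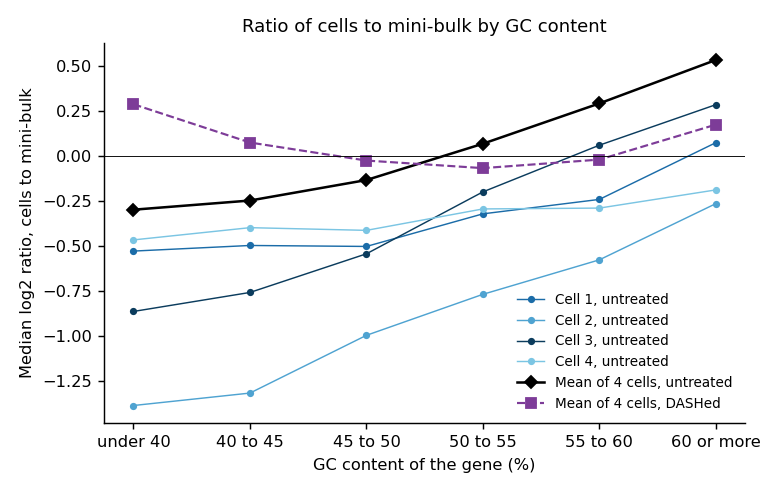
Median log2 ratio of cells to mini-bulk by the GC content of the gene (%), for each untreated cell (thin lines), the mean of the 4 untreated cells (diamonds) and the mean of the 4 DASHed cells against DASHed mini-bulk (dashed line). The untreated mean goes from −0.30 under 40% GC to 0.53 at 60% or more, while the DASHed line goes from 0.29 through −0.07 to 0.17.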

How the data were processed

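MATQ-seq libraries of 4 untreated single cells and 2 untreated mini-bulk inputs were used, with 6 DASHed libraries set beside them. The authors deposited unscaled estimated counts per gene, and the submitters' processing notes name kallisto 0.46.2. For the build, annotation, strand and summing of transcripts, details were not given in the sources used here. The program divides reads among similar transcripts, so genes that share at least 10% of their 31-base words with other GENCODE v29 transcripts are called uncertain. Of 57134 names, 57130 matched GENCODE v29 (GRCh38) after 51 of 52 damaged names were restored. Coordinates, GC content and length are from there.

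The 547 rRNA rows and 4 lincRNA rows over 18S rRNA were left out, and counts were scaled to CPM. Genes with a mean of the group means of at least 10 CPM were compared as log2 ratios with a pseudocount of 1 CPM. Library totals and counts left for use are given in the results, and a count of 3 was the floor. For detection, counts were rounded and thinned (numpy 2.4.6). The main comparison has no p-value, since the cells form 1 sample. edgeR 4.0.16 and DESeq2 1.42.0 (R 4.3.3) served for alternatives, edgeR as a test of the summed cells that assumes they vary like mini-bulk, and the scripts were tested on simulated data.

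Gene lists, members, rules and alternatives were chosen with earlier results of these data known. Named genes were the 10 protein-coding and 5 other called genes of largest ratio each way (at least 30 CPM in the higher group), up to 3 called members per list of largest ratio or the 2 most abundant where none was called, the 10 genes differing most between cells (mean of at least 100 CPM), the 10 most abundant, and cell type markers. Other genes are said to be chosen after their values were seen. A gene among the list members is not reported here.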

Additional observations from a re-analysis of the deposited data

Results flagged for a closer look

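In a group of 4 cells, a value was singled out where its distance to the nearest other cell exceeded Dixon's 95% critical share of the range of the group. Chance singles out about 1 in 20 groups only where values are normally distributed, which was not tested for these values. Nor does that rate hold for EGR1, ID2, VCAN, HIST1H3J, HIST1H2AJ and HIST1H2BM. They were named because they differed most between cells, so the criterion adds nothing for them. Also, genes at 0 in 3 cells meet the criterion with any count in the fourth. Of the 30 gene lists, which were chosen with earlier results of these data known, the shares of 5 met it. Histones took 1.19% of the counts in cell 1, S-phase replication genes 0.447% in cell 3 (0.308 to 0.322% in the others), immediate-early genes 0.704% in cell 2, epithelial genes 0.422% in cell 3, and small nucleolar and Cajal body RNAs 0.00926% in cell 3, where the other cells had 0.0204 to 0.022%.

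Cell 1 stood apart for histone genes: HIST1H3J at 1699 CPM, HIST1H1E at 913 CPM, HIST1H2AJ at 633 CPM, HIST1H2BM at 569 CPM, HIST2H4B at 39.1 CPM and HIST1H2BD at 12.3 CPM. It also did for the pseudogene GBAP1, at 1.999 CPM with 0 in the other cells. Cell 2 stood apart for EGR1 at 2009 CPM, ID2 at 670 CPM, VCAN at 643 CPM, PSMD8 at 637 CPM (263 to 285 CPM in the others), MT-ATP8 at 628 CPM, the claudin gene CLDN4 at 318 CPM (16.6 to 57.0 CPM in the others) and RNVU1-6 at 6.64 CPM. Cell 3 stood apart for the splicing factor gene SRSF5 at 44.2 CPM, where the other cells had 0 to 1.62 CPM and mini-bulk a mean of 50.7 CPM, and for AC016831.4 at 23.7 CPM, DLGAP5 at 20.5 CPM and STAG3L5P-PVRIG2P-PILRB at 11.7 CPM. Cell 4 stood apart for RPS21 at 372 CPM, for ELF3, an epithelial transcription factor gene, at 123 CPM with 0 to 1.54 CPM in the other cells and 46.1 CPM in the mini-bulk mean, for Z83844.3 at 7.17 CPM and for RNF43 at 2.57 CPM.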

How the results depend on the processing

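No paired analysis was possible because the comparison of cells and pools comes from no test and the summed cells carry no replicate number. The scaling decides how the calls divide: DESeq2 size factors gave 472 higher and 538 lower genes and a median log2 ratio of 0.38, keeping the 4 lincRNA rows 650, 89 and 0.72, and leaving no row out 418, 36 and 0.60. With TMM factors, centring on the median, other pseudocounts or the GC trend taken out, both counts were within 1.5 times the main ones. A 50 CPM filter left 194 lower genes, and no filter 4179 with a median of −0.30. The median of the cells moved the median of all genes to −0.37. A 4-fold limit left 65 higher and 421 lower genes. Counting only genes with under 10% shared words, an alternative chosen after seeing the data, left 145 higher genes, since fewer genes were counted. edgeR's quasi-likelihood test with the summed cells as 1 sample, assumed to vary like mini-bulk, called 1074 genes higher and 961 lower (234 and 710 of them also called by size) at an adjusted p under 0.05 and 1 residual degree of freedom, and 649 and 760 (188 and 570) with the DASHed groups sharing the spread, which treats the summed DASHed and untreated cells as independent although they may be the same cells.

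Leaving out 1 library gave 341 to 483 higher and 1255 to 1520 lower genes, because fewer libraries then had to lie on one side, and detection ratios of 0.661 to 0.701. The detection ratio was 0.763 with at least 10 counts. As shares of all counts, the ratio of cells to pools was 0.944 for mitochondrial mRNAs, 1.46 for nuclear protein-coding genes, 1.12 for long non-coding genes, 2.65 for ribosomal proteins and 0.565 for nuclear long non-coding RNAs. The spread between cells was 0.92 for genes at 100 CPM or more. The histone share ratio was 0.348 to 1.64 without 1 library, and the histone median was −1.86 with the median of the cells, −1.81 without cell 1 and up to 0.88 without another cell (cell 3). The median of the nuclear long non-coding RNAs was 0.036 with the lincRNA rows kept. Causes not shown by the construction of an alternative were not tested.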
